A study of Mus musculus with 2 samples.

Results

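The genes of MHC class II antigen presentation were examined in liver macrophages of tumor-bearing mice, as 10 genes picked by symbol out of 22322 in the deposited expression table. They comprised the classical chains H2-Aa, H2-Ab1 and H2-Eb1, the peptide loading genes H2-DMa, H2-DMb1, H2-DMb2, H2-Oa and H2-Ob, the invariant chain gene Cd74 and the transactivator gene Ciita. All 10 had a row, and 9 reached 1 FPKM in at least 1 library. FPKM is the number of sequenced fragments scaled to the length of the gene and to the library's total. The list was drawn up with the expression values of these same libraries known, so the values below describe the genes and support nothing by themselves.

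Systemic FABP7 knockout (FABP7 KO) mice were set against wild-type (WT) mice, all labelled C57BL/6, with the knockout on a C57BL/6J background. The methods of the study give male mice of 6 to 8 weeks for all experiments. FABP7 is a fatty acid chaperone, and in this model it is absent from every cell of the body and not from macrophages alone. Both genotypes received 500000 MC38 colon carcinoma cells in 100 µl PBS into the spleen, and F4/80 positive macrophages were selected from the metastatic livers at day 10. FABP7 KO macrophages and WT macrophages below mean these whole selected preparations, which can hold RNA of other cells. One library was made per genotype, no tumor-free library was used here, and the sources used here do not give how many mice each library holds. Differences below thus lack replicates and carry no p-values.

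MHC class II molecules are pairs of an alpha and a beta chain that display peptides from endosomes to CD4+ T cells. New pairs are assembled on the invariant chain, whose remnant is exchanged for peptide by the H2-M complex, and H2-O restrains H2-M, mainly in B cells. Transcription of these genes depends on CIITA, a coactivator that does not bind DNA itself but docks on factors bound to the X and Y boxes of class II promoters. Macrophages raise class II when interferon gamma induces Ciita, while dendritic cells and B cells express it at high level constitutively.

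Fabp7 stood at 0.69 FPKM in the FABP7 KO library against 354 FPKM in the WT library, although one label field of the knockout sample reads knockdown. All 11 macrophage markers lay above 1 FPKM in both libraries. Csf1r, the receptor for the growth factor CSF1, was at 3173 FPKM in the FABP7 KO and 2372 FPKM in the WT library. All 12 hepatocyte markers lay above 1 FPKM as well, so this floor does not set macrophages apart. Summed, the macrophage markers were at 16728 FPKM in FABP7 KO and 12865 FPKM in WT. The hepatocyte markers summed to 1166 FPKM in FABP7 KO and 576 FPKM in WT. Depth, read from the steps between low values, was estimated at about 17900000 fragments in each library. Of the 10770 measured genes, meaning those with 1 FPKM or more in either library, 2.21% were 2-fold or more higher in FABP7 KO macrophages and 2.95% 2-fold or more lower, 5.16% in all. Ratios are log2 of FABP7 KO over WT after 1 FPKM was added to each value, and their median over these genes was 0.0036.

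In FABP7 KO macrophages the abundant class II genes and Ciita stood below their WT values, and the scarce loading genes H2-DMb2 and H2-Ob above them. H2-Oa was under the floor and too low to give a direction. Ratios were negative for 7 of the 9 measured genes and positive for 2, against 49.5% of all measured genes below 0. None reached 2-fold in either direction. At a smaller size of 1.5-fold, chosen after the values were seen, 5 of the 9 were lower (H2-Aa, H2-Ab1, H2-Eb1, H2-DMb1 and Ciita) and none was higher. Of all measured genes, 7.37% were at least 1.5-fold lower and 8.02% at least 1.5-fold higher. Among the 718 genes with a mean of at least 100 FPKM, 61.6% were below 0 and 9.05% at least 1.5-fold lower. Since the class II list was chosen on this contrast, nothing is read from these shares. The median ratio of the 9 genes was -0.64. Together the 10 genes summed to 3563 FPKM in the FABP7 KO and 5190 FPKM in the WT library, which was 0.795% of all FPKM in FABP7 KO and 1.12% in WT. In bulk RNA, fewer cells that carry class II and less class II RNA per cell cannot be told apart.

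**Figure D1:**
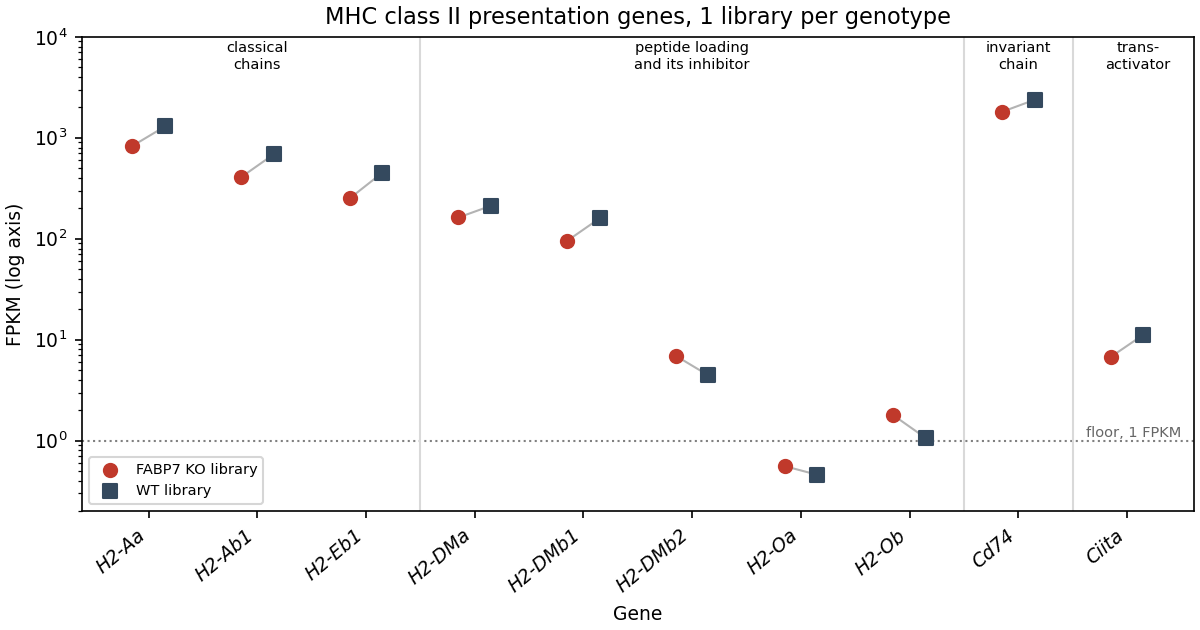
FPKM on a log axis for each of the 10 class II genes, with the FABP7 KO library as red circles left of the WT library as dark blue squares, grouped by role and joined by grey lines. The 3 classical chains, H2-DMa, H2-DMb1, Cd74 and Ciita slope up toward WT, while H2-DMb2, H2-Oa and H2-Ob slope down.

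All 3 classical chains were more than 1.5-fold lower in FABP7 KO macrophages. H2-Aa (ENSMUSG00000036594), the alpha chain of the H2-A pair, stood at 829 FPKM in FABP7 KO and 1293 FPKM in WT macrophages, a log2 ratio of -0.64. H2-Ab1 (ENSMUSG00000073421), its beta chain, stood at 406 FPKM in FABP7 KO and 685 FPKM in WT macrophages, a log2 ratio of -0.75. The 2 genes of the H2-A pair therefore lay close to each other, with H2-Aa at 64.2% and H2-Ab1 at 59.3% of its WT level in FABP7 KO macrophages. H2-Eb1 (ENSMUSG00000060586), the beta chain of the H2-E pair, stood at 251 FPKM in FABP7 KO and 451 FPKM in WT macrophages, and its log2 ratio of -0.84 was the lowest among the 10 genes. Of all measured genes, 3.96% had a ratio below that of H2-Eb1, 4.74% below that of H2-Ab1 and 6.12% below that of H2-Aa. Among genes with a mean of at least 100 FPKM, these shares were 2.37%, 4.04% and 6.96%. The list was chosen on this contrast, so nothing is read from them.

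These genes were among the most abundant messages of both libraries. H2-Aa ranked 57th by FPKM in the FABP7 KO library and 37th in the WT library, and H2-Ab1 ranked 129th in the FABP7 KO library and 72nd in the WT library. Over the 3 chains the sum was 1486 FPKM in FABP7 KO and 2429 FPKM in WT macrophages, or 0.612 times the WT sum. The make-up of the sum differed little between the genotypes, with H2-Aa at 55.8% of it in FABP7 KO and 53.2% in WT macrophages, and H2-Eb1 at 16.9% in FABP7 KO and 18.6% in WT macrophages. C57BL/6 mice lack a working alpha chain for H2-E, because the promoter of H2-Ea is deleted in this strain, and the H2-Ea row was at 0 FPKM in both libraries. H2-Eb2, a further beta chain gene of the locus, was at 0.13 FPKM in FABP7 KO and 0.05 FPKM in WT macrophages.

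Counting error was small for these chains. The fragments behind each value were estimated from depth and the length of the longest coding transcript in GENCODE, at 16696 in FABP7 KO and 26156 in WT macrophages for H2-Aa and at 7475 in FABP7 KO and 13502 in WT macrophages for H2-Eb1. On the log2 scale without a pseudocount, the exact 95% interval was -0.67 to -0.61 for H2-Aa, -0.79 to -0.72 for H2-Ab1 and -0.89 to -0.80 for H2-Eb1. The intervals of the 3 chains did not overlap. They cover counting error alone and leave out differences between mice, cell isolations and library preparations, none of which can be estimated from 1 library a genotype.

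The invariant chain was the most abundant of the 10 genes and lay closer to its WT level than the chains it escorts. Cd74 (ENSMUSG00000024610) stood at 1804 FPKM in FABP7 KO and 2372 FPKM in WT macrophages, a log2 ratio of -0.40. A lower ratio was held by 14.9% of measured genes, and by 22.3% of those with a mean of at least 100 FPKM. Cd74 was also abundant by rank. It ranked 30th by FPKM in the FABP7 KO library and 19th in the WT library. Set against the sum of the classical chains within each library, Cd74 came to 1.21 times that sum in FABP7 KO and 0.977 times in WT macrophages. Cd74 thus exceeded the summed chains in the FABP7 KO library and came just under them in the WT library.

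The transactivator lay about as far below its WT level as the classical chains. Ciita (ENSMUSG00000022504) stood at 6.73 FPKM in FABP7 KO and 11.2 FPKM in WT macrophages, a log2 ratio of -0.65, on an estimated 722 fragments in FABP7 KO and 1204 in WT. Without a pseudocount the ratio was -0.73, with an exact 95% counting interval of -0.87 to -0.60. Per unit of summed classical chains, Ciita was at 0.453% in FABP7 KO and 0.460% in WT macrophages. Its level relative to the chains was therefore nearly the same in both libraries.

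The peptide loading genes did not share one direction. H2-DMa (ENSMUSG00000037649), the alpha chain of H2-M, stood at 162 FPKM in FABP7 KO and 212 FPKM in WT macrophages, a log2 ratio of -0.38. H2-DMb1 (ENSMUSG00000079547), the more abundant beta chain, stood at 95.2 FPKM in FABP7 KO and 160 FPKM in WT macrophages, a log2 ratio of -0.74. The beta chain of H2-M thus lay as far below WT as the classical chains, and its alpha chain only as far as Cd74. The ratio of H2-DMb1 to H2-DMa was 0.586 in FABP7 KO and 0.752 in WT macrophages. H2-DMb2 (ENSMUSG00000037548), the second beta chain gene, stood at 6.92 FPKM in FABP7 KO and 4.43 FPKM in WT macrophages, a log2 ratio of 0.54 on an estimated 183 fragments in FABP7 KO and 118 in WT. Relative to H2-DMb1 it was at 7.27% in FABP7 KO and 2.78% in WT macrophages.

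H2-DMb1 and H2-DMb2 are near-identical copies whose values are less certain than those of the other genes. Their coding sequences were 95.9% identical over 783 aligned bases, and 26.8% of all 50-base windows of the H2-DMb2 transcript occurred unchanged in that of H2-DMb1. No source used here says how fragments from such stretches were shared out. The sum of both genes, on which this handling could also bear, was 102 FPKM in FABP7 KO and 164 FPKM in WT macrophages, a log2 ratio of -0.68. No other pair of alpha or beta chains among the members shared a single 50-base window, and the next most alike, H2-Ab1 and H2-Eb1, were 73.7% identical.

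The chains of H2-O, which inhibits H2-M, were near the detection floor. H2-Ob (ENSMUSG00000041538), its beta chain, stood at 1.79 FPKM in FABP7 KO and 1.06 FPKM in WT macrophages, a log2 ratio of 0.44 that the added 1 FPKM understates. Without a pseudocount its ratio was 0.76, with an exact 95% counting interval of 0.23 to 1.27. H2-Oa (ENSMUSG00000024334), its alpha chain, was under the floor at 0.56 FPKM in FABP7 KO and 0.46 FPKM in WT macrophages. It rested on about 11 fragments in the FABP7 KO and 9 in the WT library, and with an interval of -1.11 to 1.75 a difference was not detectable at this depth. Summed, the H2-O chains were at 0.889% of the H2-M chains in FABP7 KO and 0.404% in WT macrophages.

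**Figure D2:**
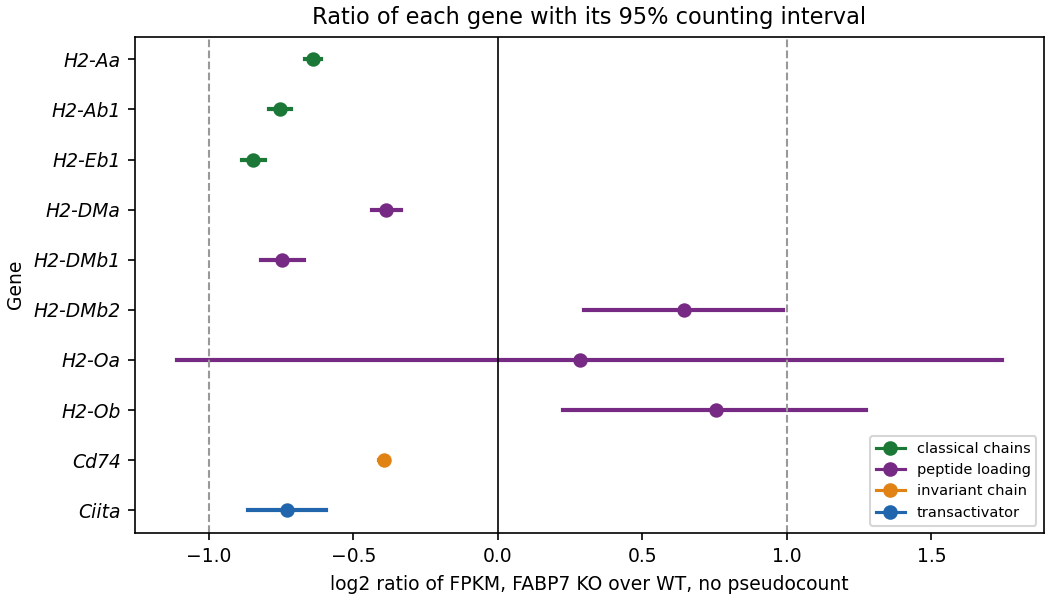
Ratio of FABP7 KO to WT FPKM on the log2 scale, without a pseudocount, for each of the 10 genes (points, colored by role) with its exact 95% counting interval (bars), and 2-fold marked by dashed lines. H2-Aa, H2-Ab1, H2-Eb1, H2-DMa, H2-DMb1, Cd74 and Ciita lie left of 0, H2-DMb2 and H2-Ob lie right of 0, and the interval of H2-Oa spans 0.

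The promoters of these genes are shown because most share the X and Y boxes through which CIITA acts. Windows running 250 bases before to 50 bases after each annotated start were taken from RefSeq (GRCm38.p6), which held 7 of the 10 genes, all but H2-Ab1, Cd74 and Ciita. The X box core was searched as AGNAAC and the Y box core as ATTGG, in this order on either strand with starts 15 to 45 bases apart. Both cores stood in the promoters of H2-Eb1, H2-DMb1, H2-Oa and H2-Ob, each on the gene's own strand. The pair occurred in 1.67% of all 32851 windows of this length and in 1.88% of the genes. With the X core shortened to GNAAC, a choice made after the sequence was seen, H2-Aa held the pair as well, and 4.93% of all windows did. In the 5 promoters the X core began 31 to 34 bases before the Y core, and the Y core began between 61 and 43 bases before the start of the gene. H2-DMb2 had a Y core 90 bases before its start and no X core of either spelling at that distance. The windows of H2-DMa held no such pair. A match is a run of letters and not a measured binding site. Below, 60 bases before to 15 bases after the Y core are printed 5′ to 3′ on the gene's strand, with the X and Y cores in capitals.
H2-Aa, chr17:34287852-34287931, minus strand: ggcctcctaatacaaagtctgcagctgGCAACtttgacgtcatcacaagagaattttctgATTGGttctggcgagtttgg
H2-Eb1, chr17:34305748-34305827, plus strand: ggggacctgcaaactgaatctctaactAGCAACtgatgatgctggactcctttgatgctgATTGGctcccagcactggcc
H2-DMb1, chr17:34153070-34153149, plus strand: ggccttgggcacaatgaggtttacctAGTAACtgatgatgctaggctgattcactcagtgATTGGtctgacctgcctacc
H2-DMb2, chr17:34145099-34145178, plus strand: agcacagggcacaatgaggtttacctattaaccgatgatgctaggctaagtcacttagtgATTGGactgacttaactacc
H2-Oa, chr17:34092276-34092355, plus strand: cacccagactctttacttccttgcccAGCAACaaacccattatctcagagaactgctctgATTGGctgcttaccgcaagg
H2-Ob, chr17:34238788-34238867, plus strand: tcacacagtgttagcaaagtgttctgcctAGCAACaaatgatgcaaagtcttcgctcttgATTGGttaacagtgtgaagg

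Among the promoters with both cores, those of H2-Aa, H2-Eb1 and H2-DMb1 belonged to genes with ratios of -0.64, -0.84 and -0.74, and that of H2-Ob to a gene with a ratio of 0.44, while H2-Oa was too low to measure. The value of H2-Ob rests on few fragments, and nothing is read from it about the cores.

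**Figure D3:**
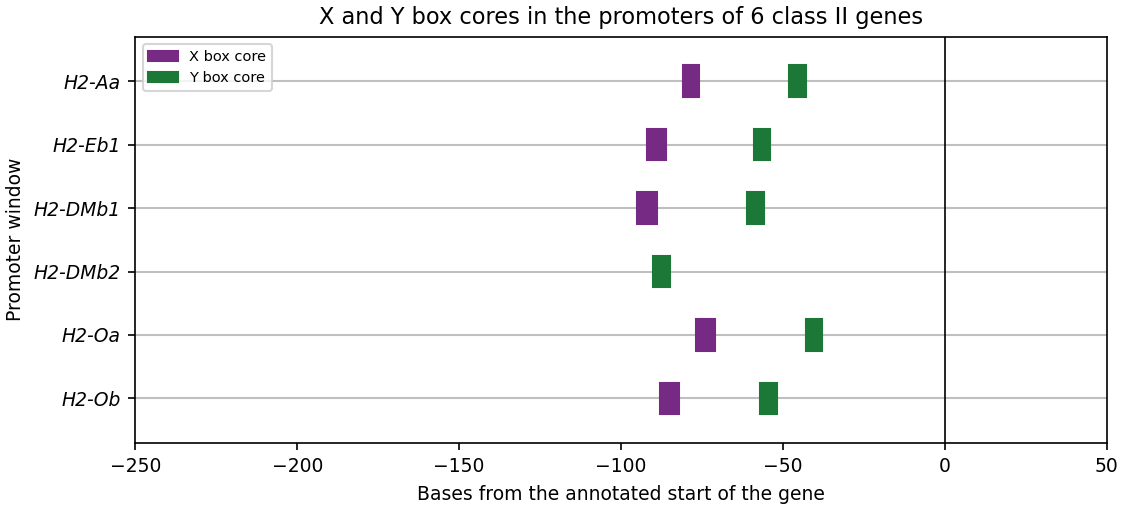
Position of the X box core (purple) and the Y box core (green) in 6 class II promoters, in bases from the annotated start of the gene (vertical line). In 5 promoters the cores lie 31 to 34 bases apart, and in H2-DMb2 only the Y core was found.

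The other genes of the class II pathway stood near their WT levels in most cases. Of 31 such genes, 28 were measured, 16 with a ratio above 0 and 12 below 0, and their median was 0.045. One passed 2-fold, Cd83, which antagonizes the ubiquitin ligase that removes class II from the surface. Cd83 rose to 54.4 FPKM in FABP7 KO, against 8.47 FPKM in WT macrophages, a log2 ratio of 2.55. Its opponent Marchf1 was at 96.5 FPKM in FABP7 KO and 114 FPKM in WT macrophages, a ratio of -0.23. Which cells of the selection carried the Cd83 RNA was not tested.

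The factors that bind class II promoters and recruit CIITA had a median ratio of -0.0069 over 7 genes, with 3 above and 4 below 0. Nfya, a subunit of the NF-Y complex that binds the Y box, was at 32.9 FPKM in FABP7 KO and 22.6 FPKM in WT macrophages, a ratio of 0.52. Creb1, whose product binds within the extended X box, was at 16.7 FPKM in FABP7 KO and 17.7 FPKM in WT macrophages. Rfx5, the DNA-binding subunit of the X box complex, was at 7.29 FPKM in FABP7 KO and 7.33 FPKM in WT macrophages. Past 1.5-fold were Nfyb, another NF-Y subunit, at 4.84 FPKM in FABP7 KO and 8.33 FPKM in WT, a ratio of -0.68, and Rfxap, a subunit of the X box complex, at 4.09 FPKM in FABP7 KO and 2.37 FPKM in WT, a ratio of 0.59. Rfx5, Nfyb and Rfxap are named after their values were seen, and these factors showed no common direction.

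Upstream of Ciita, 5 of 6 measured genes of the interferon gamma route had ratios above 0. Ifngr1, the ligand-binding chain of the receptor, was at 243 FPKM in FABP7 KO and 194 FPKM in WT macrophages, a ratio of 0.32.

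The endosomal processing genes were abundant and lay nearer to their WT levels. None of the 10 passed 1.5-fold, 6 were above and 4 below 0, and their median ratio was 0.045. Ctss, the protease that trims the invariant chain, was at 2770 FPKM in FABP7 KO and 3205 FPKM in WT macrophages, a ratio of -0.21. Ctsb, another cathepsin, was at 2360 FPKM in FABP7 KO and 2078 FPKM in WT macrophages, a ratio of 0.18. Among partners of surface CD74, its ligand gene Mif was at 28.2 FPKM in FABP7 KO and 50.1 FPKM in WT macrophages, a ratio of -0.81, and the coreceptor Cd44 was at 307 FPKM in FABP7 KO and 356 FPKM in WT macrophages.

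**Figure D4:**
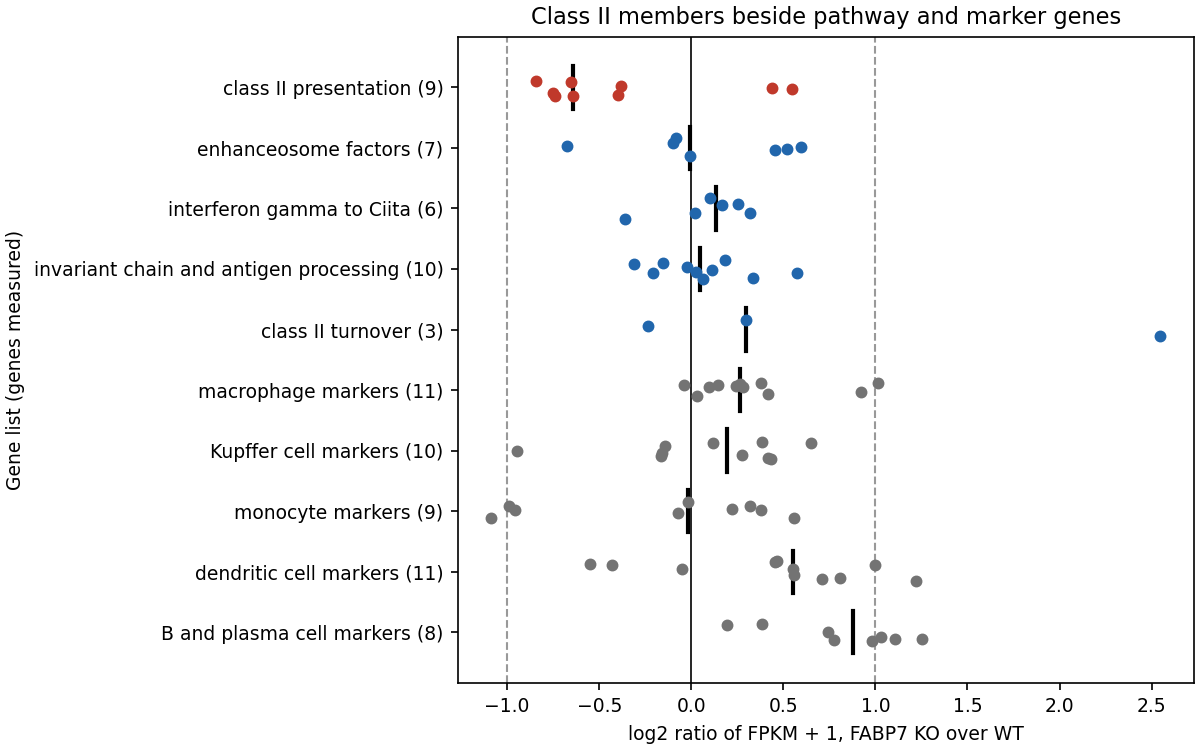
Ratio of FABP7 KO to WT on the log2 scale after adding 1 FPKM, for each measured gene (points) of the class II set (red), pathway lists (blue) and marker lists (grey), with the list's median (black bar) and 2-fold as dashed lines. The class II genes have their median at -0.64, left of all other medians shown, and Cd83 lies at 2.55.

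Because dendritic cells and B cells carry class II RNA constitutively, their markers were read beside the class II values. Markers of both had mostly higher values in the FABP7 KO library, as had H2-DMb2 and H2-Ob, and opposite to the 7 more abundant class II genes. Of 15 dendritic cell markers, 11 were measured, 8 above and 3 below 0, with a median of 0.56 and 1 past 2-fold. With a pseudocount of 0.1 FPKM the median was 0.74 and 4 were past 2-fold. Their summed level was 212 FPKM in FABP7 KO and 211 FPKM in WT macrophages, most of it from Irf8, at 75.3 FPKM in FABP7 KO and 77.9 FPKM in WT, and Wdfy4, at 68.4 FPKM in FABP7 KO and 92.4 FPKM in WT. The one past 2-fold with 1 FPKM added was Fscn1, at 5.02 FPKM in FABP7 KO and 1.58 FPKM in WT macrophages. No dendritic cell marker was at 0. Outside the naming rule, Flt3, a receptor gene of this list, was under the floor at 0.27 FPKM in FABP7 KO and 0.09 FPKM in WT macrophages. Clec9a, also outside that rule, was at 25.8 FPKM in FABP7 KO and 15.4 FPKM in WT. Xcr1, likewise outside it, went the other way, at 0.50 FPKM in FABP7 KO and 1.20 FPKM in WT, a ratio of -0.55.

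Of 15 B and plasma cell markers, 8 were measured, all above 0 with a median of 0.88. Their sum was 152 FPKM in FABP7 KO and 103 FPKM in WT macrophages, most of it from Bank1, at 73.1 FPKM in FABP7 KO and 63.7 FPKM in WT, and Cd22, at 43 FPKM in FABP7 KO and 24.7 FPKM in WT. Past 2-fold were Cd79a, at 3.36 FPKM in FABP7 KO and 0.83 FPKM in WT, Cd79b, at 18.1 FPKM in FABP7 KO and 7.89 FPKM in WT, and Fcer2a, at 1.45 FPKM in FABP7 KO and 0.2 FPKM in WT. No B or plasma cell marker was at 0. The part of B cells and dendritic cells in the values of H2-DMb2, H2-Oa and H2-Ob was not tested.

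Monocytes, whose progeny in the liver can also carry class II, had 9 of 10 markers measured and a median of -0.018, which was -0.51 with a floor of 5 FPKM and turned to 0.018 and 0.031 under other scalings of the library. Their sum was 483 FPKM in FABP7 KO and 973 FPKM in WT macrophages, nearly all from Plac8, which fell to 427 FPKM in FABP7 KO, against 908 FPKM in WT, a ratio of -1.08. Hp was at 19.7 FPKM in FABP7 KO and 19.9 FPKM in WT macrophages. This sum thus rested on Plac8, and the part of monocyte-derived cells in the class II values was not tested. Macrophage markers had a median of 0.26, with 10 of 11 above 0 and 1 past 2-fold, and C1qb was at 2944 FPKM in FABP7 KO and 2422 FPKM in WT macrophages. Kupffer cell markers, those of resident liver macrophages, had a median of 0.19, with 6 of 10 above 0 and none past 2-fold. Cd5l was at 6001 FPKM in FABP7 KO and 6696 FPKM in WT, and Clec4f at 4156 FPKM in FABP7 KO and 3188 FPKM in WT. The general macrophage markers thus had mostly higher values in the FABP7 KO library, in which the abundant class II genes were lower. Kupffer cell markers ran both ways, with 6 above and 4 below 0. The lowest, Marco, named after its value was seen, was at 714 FPKM in FABP7 KO and 1377 FPKM in WT, a ratio of -0.95.

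Markers of other liver and blood cells also differed between the libraries. All 8 measured of 11 neutrophil markers were above 0, 7 of them past 2-fold, with a sum of 116 FPKM in FABP7 KO and 40.3 FPKM in WT macrophages. Csf3r was at 51.3 FPKM in FABP7 KO and 27.3 FPKM in WT, and S100a9 at 25.3 FPKM in FABP7 KO and 4.31 FPKM in WT. All 10 sinusoidal endothelial markers were above 0, 7 of them past 2-fold, with a sum of 313 FPKM in FABP7 KO and 167 FPKM in WT macrophages. These cells too can carry class II, and their leading markers were Stab2, at 118 FPKM in FABP7 KO and 79.9 FPKM in WT, and Pecam1, at 51.5 FPKM in FABP7 KO and 38.6 FPKM in WT. Of 12 hepatocyte markers, 11 were above 0 and 3 past 2-fold, with a sum of 1166 FPKM in FABP7 KO and 576 FPKM in WT macrophages. Trf was at 642 FPKM in FABP7 KO and 306 FPKM in WT, and Alb at 305 FPKM in FABP7 KO and 144 FPKM in WT. These 3 lists therefore ran opposite to the abundant class II genes.

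T and NK cell markers, 7 of 15 measured, had a median of 0.34 and summed to 16.5 FPKM in FABP7 KO and 16.0 FPKM in WT macrophages, with Gzma at 3.10 FPKM in FABP7 KO and 3.77 FPKM in WT and Cd4 at 2.77 FPKM in FABP7 KO and 1.97 FPKM in WT. One was past 2-fold, Gzmb, named after its value was seen, which fell to 0.89 FPKM in FABP7 KO, against 3.38 FPKM in WT. Epithelial and tumor cell markers, 3 of 6 measured and none past 2-fold, had a median of -0.24 and summed to 6.54 FPKM in FABP7 KO and 6.76 FPKM in WT macrophages, with Krt18 at 2.48 FPKM in FABP7 KO and 3.38 FPKM in WT and Krt8 at 1.88 FPKM in FABP7 KO and 1.80 FPKM in WT. Of all markers, Epcam alone was at 0, in the WT library. Both lists thus had low sums in both libraries. The part of any of these cells in the class II values was not tested. After scaling the FABP7 KO library by totals without hepatocyte markers and mitochondrially encoded genes, H2-Aa was at -0.59 and H2-Eb1 at -0.79.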

How the data were processed

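Poly(A) RNA libraries were randomly primed and read on an Illumina instrument. Values deposited by the authors were FPKM with 2 decimals for 22322 genes, in 1 table of both libraries and in 1 table per library with the same values. Bowtie2 2.2.8 and TopHat2 2.1.1 are listed in the submitters' processing notes, without a role. Build, annotation and counting tool: not given in the sources used here. Symbols came from GENCODE M21 by Ensembl ID (22267 genes).

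From the deposited FPKM, log2 ratios used a pseudocount of 1 and a floor of 1 FPKM in a library, and 2-fold served as the size rule. The members and lists were chosen with earlier results of these data known. Named were all members, pathway genes past the size rule, the 2 most abundant genes of each pathway and marker list, and every dendritic or B cell marker past the rule. A gene this rule names is not reported here. Depth was fitted as the total that put 89.7% of low values of single-transcript genes within 0.15 of a whole fragment in each library. For genes with several transcripts, the longest coding transcript put 52.4% in FABP7 KO and 55.1% in WT there, against 30% for evenly spread values. Fragment numbers are therefore approximate. Intervals are exact (Clopper-Pearson) and cover counting error only, since copies made by PCR are not independent molecules. Of the steps, the 2-fold size rule and the depth fit were tested on simulated data, the former with planted changes larger than 2-fold. Coding sequences came from GENCODE transcripts, and protein sequences were not used here. Python 3.11.15, NumPy 2.4.6, pandas 2.3.3, SciPy 1.17.1 and Matplotlib 3.10.9 were used.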

Additional observations from a re-analysis of the deposited data

How the results depend on the processing

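The 9 measured class II genes kept their sign and stayed under 2-fold in all 44 values under other pseudocounts (0.1), floors (none, or 5 FPKM, which leaves out H2-Ob) and scalings. A floor does not enter a gene's ratio, so the values under other floors repeat the main ones, and a pseudocount cannot turn a sign. H2-Aa ranged from -0.64 to -0.59, Ciita from -0.72 to -0.61 and H2-Ob from 0.44 to 0.70. The scalings shifted ratios by 0.037 and 0.051, less than the size of any of these ratios. The kept signs were thus fixed in advance, and nothing is read from them. All genes past the size rule numbered 1006 with a pseudocount of 0.1 (562 of them higher), 189 when a log2 ratio of 1.5 was required (50 higher, 139 lower) and 1658 for 1.5-fold (864 higher, 794 lower), against 556, and those higher numbered 143 with a floor of 5 FPKM, against 238. At 1.5-fold, chosen after seeing the data, 5 class II genes, 4 other pathway genes and 44 markers passed, against 0, 1 and 24 at 2-fold, and 15 markers passed with a floor of 5 FPKM and 10 at a log2 ratio of 1.5. With a pseudocount of 0.1, 4 dendritic cell and 3 monocyte markers passed, against 1 and 1, and 2 T and NK cell markers, against 1. With a floor of 5 FPKM, 1 B and plasma cell and 3 neutrophil markers passed, against 3 and 7. The monocyte median was -0.51 with a floor of 5 FPKM and changed sign without a floor (0.034) and under both scalings (0.018 and 0.031), and the epithelial median without a floor (0.11). Their cause was not tested, beyond the looser or stricter rule itself. No paired analysis was possible because each genotype has 1 library. Depth limits H2-Oa and H2-Ob, with under 100 fragments each.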

Other observations

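MHC class I presentation genes, a list added after the class II values were seen, had ratios below 0 in all 7 cases, with a median of -0.24. Of all measured genes, 49.5% were below 0. H2-K1 was at 1358 FPKM in FABP7 KO and 1598 FPKM in WT macrophages, H2-D1 at 1684 FPKM in FABP7 KO and 1713 FPKM in WT, and B2m, the shared light chain, at 3389 FPKM in FABP7 KO and 3855 FPKM in WT. The peptide transporter gene Tap1 was the one past 1.5-fold, at 76.9 FPKM in FABP7 KO and 127 FPKM in WT macrophages, a ratio of -0.71. Nlrc5, the class I counterpart of Ciita, was at 33.6 FPKM in FABP7 KO and 44.4 FPKM in WT macrophages, a ratio of -0.39. Whether class I and class II differed in their ratios was not tested, since 1 library a genotype gives no spread. Over the 718 genes with a mean of at least 100 FPKM, the median ratio was -0.12, 61.6% were below 0 and 9.05% were at least 1.5-fold lower.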
